A study of Rattus norvegicus with 6 samples.

Results

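The endoplasmic reticulum chaperones and the proteins of the unfolded protein response were followed through 10 genes in the Achilles tendon of newborn rats, out of 14217 genes measured. The 10 were Hspa5, Hsp90b1, Calr, Pdia4, Pdia6, Creld2, Manf, Dnajb9, Xbp1 and Ddit3, chosen by symbol. Each was read from a single probe set that the platform annotation pairs with that gene alone, so no gene of the set had another probe set to check it against. Transcripts were measured on an Affymetrix rat expression array in tendons of post-natal day 7 and of post-natal day 1, with 3 arrays for each age. Each array carried RNA from at least 2 individuals, and the labels name no strain, sex or treatment. The p-values therefore measure the spread between pools.

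Proteins bound for secretion fold in the endoplasmic reticulum with the help of chaperones and of enzymes that form and rearrange disulfide bonds. When unfolded proteins accumulate there, the sensors ATF6, IRE1 and PERK start the unfolded protein response, in which ATF6 and the transcription factor XBP1 raise the chaperone genes and the PERK branch acts through ATF4 and CHOP. Tendon fibroblasts secrete large amounts of collagen and so carry a heavy folding load. The comparison asks how transcripts of this machinery change over the first 7 days of post-natal growth.

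Of the 10 genes, 3 fell on day 7 and none rose (limma, adjusted p under 0.05 after Benjamini-Hochberg correction across every probe set). They were Hspa5, which fell 1.64-fold, Creld2 with 1.55-fold and Manf with 1.44-fold. Among all genes 3.15% were called lower and 1.93% higher. The shares were larger among brighter genes, to which all 10 belong. In a fit of probe sets brighter than the median probe set, 641 of 9607 genes were called lower and 334 higher. At an unadjusted p under 0.05, 5 of the 10 were lower and none higher, against 17.0% and 10.6% of all genes. The disulfide isomerases and Hsp90b1 lay lower on day 7 without passing the test. The groups overlapped for Calr and Dnajb9, and for Xbp1 and Ddit3, the transcription factors of the set.

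The ER stress element is the promoter sequence through which ATF6, together with NF-Y, acts on the chaperone genes. Its matches are shown because most promoters found for the set hold it and few others do. As the element is known from chaperone genes, its presence in their windows is not an independent finding about the set. RefSeq promoter windows of 300 bases, 250 before and 50 after the annotated start in the rat build GRCr8, were found for 8 of the 10 genes, all but Pdia6 and Manf. They were searched on both strands for the full element, CCAAT and CCACG with 9 bases of any kind between them. It was present in 5 of these 8 windows, those of Hspa5, Hsp90b1, Calr, Creld2 and Xbp1, and in 22 of all 33469 windows, or 0.0657%. The matches are written below 5′ to 3′ on the strand that carries the element, with the CCAAT and CCACG ends in capitals, and with the position of the first base in the gene's direction where the start is 0.
Hspa5, position -43, same strand as the gene: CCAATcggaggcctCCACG
Hsp90b1, position -176, same strand: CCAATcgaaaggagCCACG
Hsp90b1, position -72, opposite strand: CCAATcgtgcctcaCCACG
Calr, position -232, opposite strand: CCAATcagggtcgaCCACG
Creld2, position -145, opposite strand: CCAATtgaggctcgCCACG
Xbp1, position -65, same strand: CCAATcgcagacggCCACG

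The CCAAT and CCACG words on their own are common, since 11.3% of all windows held both, in any order, and so did all 8 windows of the set, Pdia4, Dnajb9 and Ddit3 included. The XBP1 and ATF6 site TGACGTG was found in the Hspa5 window and in 1.81% of all windows. The variant element, ATTGG and CCACG with 1 base between them, and the ATF4 and CHOP site TGATGCAAT were found in none of the 8 windows, and in 0.0508% and 0.188% of all windows. TGACGTG did not overlap the full element in Hspa5. A match describes letters within these windows, and binding was not measured.

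**Figure D1:**
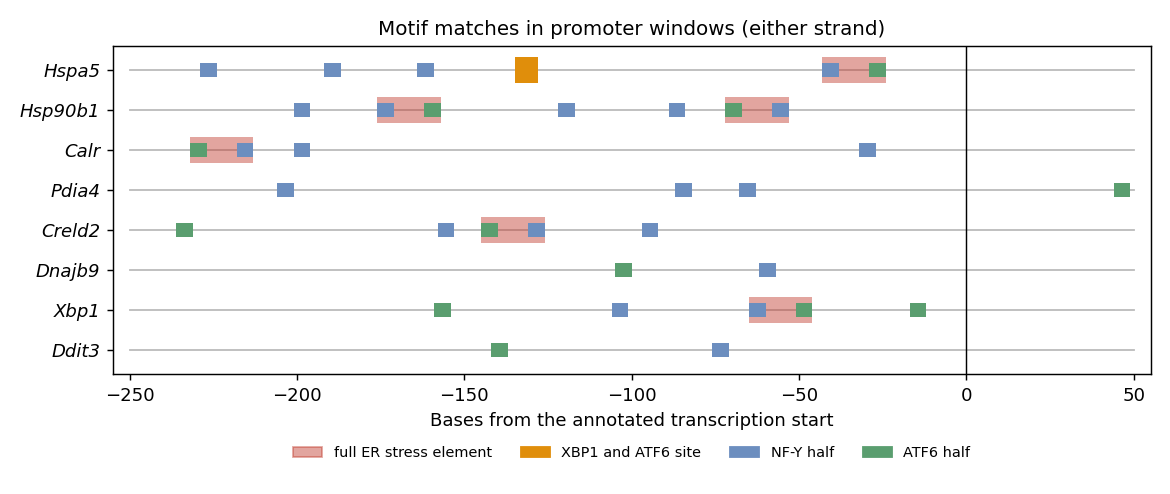
Matches to the full ER stress element, to the XBP1 and ATF6 site and to the words CCAAT (NF-Y) and CCACG (ATF6), on either strand, in the promoter windows of 8 genes. The words are marked wherever they occur, also outside the element and in windows without it. The horizontal axis gives bases from the annotated start at 0, and the full element is seen in 5 of the 8 windows, with 2 matches in Hsp90b1.

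The whole windows are given for Hspa5 and Creld2, the genes with a window whose transcripts fell, and for Hsp90b1, which holds 2 elements. Capitals mark the full element and, in Hspa5, also TGACGTG; where the element lies on the opposite strand its reverse complement is seen. The Hspa5 window is chr3:38452766-38453065 on the plus strand, that of Creld2 is chr7:121789134-121789433 on the plus strand, and that of Hsp90b1 is chr7:23012244-23012543 on the minus strand.
Hspa5: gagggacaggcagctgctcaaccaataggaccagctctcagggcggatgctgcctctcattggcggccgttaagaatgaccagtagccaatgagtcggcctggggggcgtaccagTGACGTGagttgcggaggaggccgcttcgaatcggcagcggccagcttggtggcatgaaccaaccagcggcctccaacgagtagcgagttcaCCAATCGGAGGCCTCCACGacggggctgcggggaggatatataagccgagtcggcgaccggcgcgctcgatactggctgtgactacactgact
Creld2: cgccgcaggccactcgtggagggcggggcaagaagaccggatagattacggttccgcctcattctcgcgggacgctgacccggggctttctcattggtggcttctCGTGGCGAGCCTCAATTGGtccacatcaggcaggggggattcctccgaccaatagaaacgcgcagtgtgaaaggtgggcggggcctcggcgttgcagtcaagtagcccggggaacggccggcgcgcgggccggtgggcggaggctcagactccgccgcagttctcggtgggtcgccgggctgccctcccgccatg
Hsp90b1: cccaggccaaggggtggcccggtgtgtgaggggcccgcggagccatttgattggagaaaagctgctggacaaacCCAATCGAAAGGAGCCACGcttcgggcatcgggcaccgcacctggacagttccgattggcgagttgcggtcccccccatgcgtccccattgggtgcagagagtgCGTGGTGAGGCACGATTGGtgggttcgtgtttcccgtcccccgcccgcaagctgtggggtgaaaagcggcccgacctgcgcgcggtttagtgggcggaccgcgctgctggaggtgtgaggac

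Hspa5 encodes BiP, the Hsp70 chaperone of the endoplasmic reticulum, which also holds the stress sensors inactive. Its intensity was 682, 756 and 722 on day 7, against 1335, 1255 and 987 on day 1 (replicates 1, 2 and 3). All day 7 arrays lay below all day 1 arrays, and the day 1 arrays were the more spread out. The mean was 720.4 ± 37.0 on day 7 and 1192 ± 183 on day 1 (SD, n = 3 each), a log2 change of -0.72 with an SE of 0.14 and a 95% interval of -1.03 to -0.40 (limma adjusted p = 0.0371). Every log2 change is the day 7 mean less the day 1 mean of log2(value + 1).

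Hsp90b1 encodes GRP94, the Hsp90 chaperone of the same compartment, which folds a narrower set of clients including integrins. It read 965, 1005 and 1059.8 on day 7, against 1748, 1398 and 1081 on day 1. The groups did not overlap, but the highest day 7 array and the lowest day 1 array nearly met. The change of -0.45 (SE 0.17; 95% interval -0.85 to -0.05) did not pass (limma adjusted p = 0.179). Calr encodes calreticulin, the lectin chaperone that binds newly glycosylated proteins and calcium. Its values of 581, 615 and 628 on day 7 overlapped those of 737, 658 and 627 on day 1, with a change of -0.15 (95% interval -0.40 to 0.11; limma adjusted p = 0.478).

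Pdia4 and Pdia6 encode ERp72 and P5, disulfide isomerases found in complexes with BiP. Pdia4 read 304, 291 and 264 on day 7, against 415, 341 and 313 on day 1. Pdia6 read 1276, 1208 and 1234 on day 7, against 1737, 1493 and 1446 on day 1. In both genes all day 7 arrays lay below all day 1 arrays. Neither change passed: it was -0.31 (95% interval -0.62 to 0.0044) for Pdia4 and -0.33 (95% interval -0.59 to -0.07) for Pdia6 (limma adjusted p = 0.233 and 0.144).

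Creld2 and Manf encode small proteins of the endoplasmic reticulum that are partly secreted and that are strongly induced by the unfolded protein response. Creld2, which has disulfide isomerase activity, read 176, 229 and 214 on day 7, against 340, 302 and 314 on day 1. Its day 7 values were all lower than those of day 1, and replicate 1 was the lowest of them. The mean was 206 ± 27.5 on day 7 and 318 ± 19.4 on day 1 (SD, n = 3 each), a log2 change of -0.63 (SE 0.13; limma adjusted p = 0.0436). Manf, which binds BiP and was first studied as a neurotrophic factor, read 502, 595 and 535 on day 7, against 781, 755 and 816 on day 1. The groups did not overlap, and the mean was 544 ± 47.1 on day 7 and 784 ± 30.6 on day 1 (SD, n = 3 each). The change was -0.53 (SE 0.11; limma adjusted p = 0.0450).

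Dnajb9 encodes ERdj4, a J-domain partner of BiP that returns the sensor IRE1 to its inactive state. It read 110, 107 and 81.9 on day 7, against 98.1, 117 and 119 on day 1, and the groups overlapped (change -0.17, 95% interval -0.51 to 0.18; limma adjusted p = 0.554). Xbp1 encodes the transcription factor that IRE1 activates by splicing its mRNA. A single probe set gives 1 value for the gene and no measure of splicing. Xbp1 read 879, 853 and 759 on day 7, against 815, 997 and 791 on day 1. The groups overlapped, and the change of -0.06 (95% interval -0.36 to 0.24; limma adjusted p = 0.828) leaves room for a modest difference either way. Ddit3 encodes CHOP, the pro-apoptotic factor of the PERK branch. It read 43.3, 39.5 and 42.6 on day 7, against 39.5, 45.8 and 26.9 on day 1. Its change of 0.19 (95% interval -0.24 to 0.62; limma adjusted p = 0.597) was the only positive one, and it was -0.03 without day 1 replicate 3, the lowest array.

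**Figure D2:**
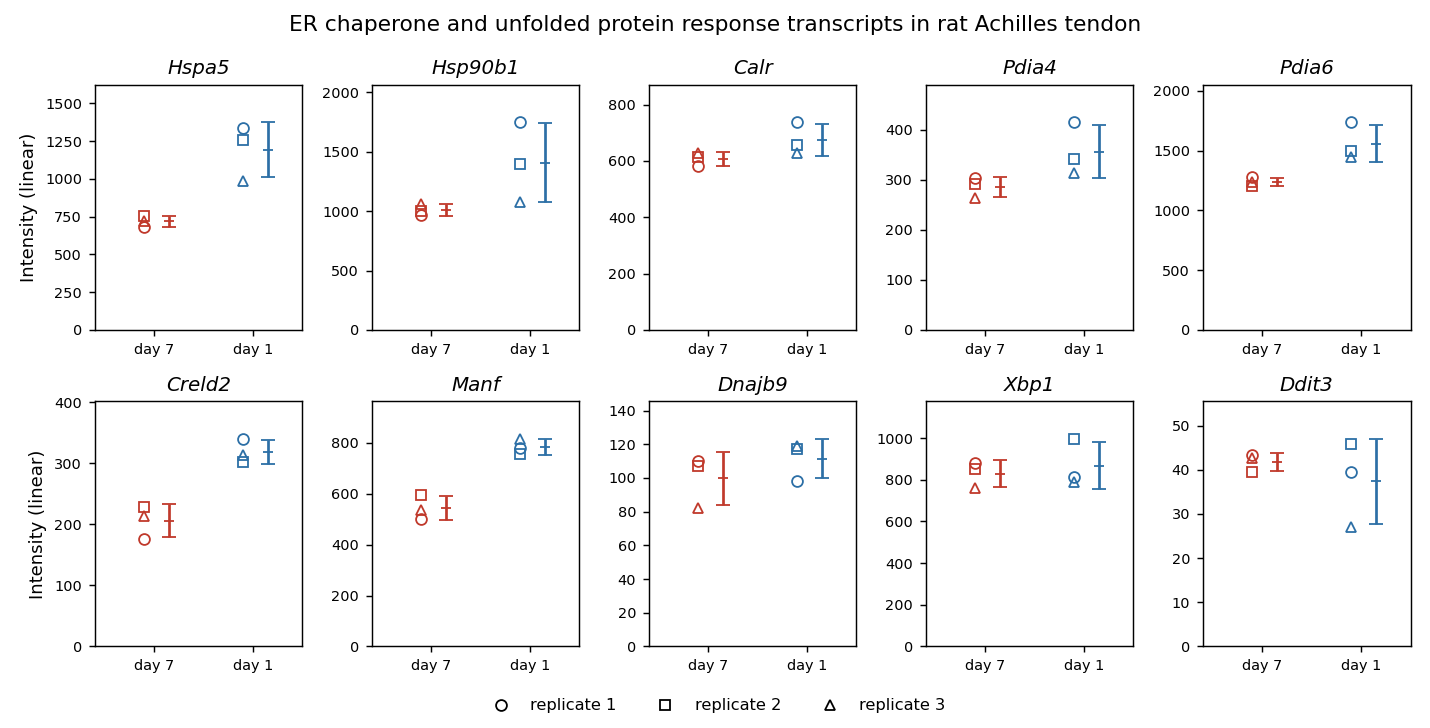
Intensity of the 10 transcripts on each array (vertical axis, linear, from 0), day 7 left and day 1 right, with symbols for replicates and bars for the mean and SD (n = 3). The day 7 arrays lie below all day 1 arrays for Hspa5, Hsp90b1, Pdia4, Pdia6, Creld2 and Manf, and the groups overlap for Calr, Dnajb9, Xbp1 and Ddit3.

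The day 7 arrays lay below all day 1 arrays for 6 of the 10 genes and above them for none, where 19.1% and 14.0% of all genes were so separated. Of the 10 changes 9 were negative, as were 52.0% over all genes. The median change of the set was -0.32, against -0.01 over all genes and -0.10 over the 9607 genes read from the brighter probe sets, among which all 10 belong. Within day 1 the highest array was replicate 1 for 6 genes, namely Hspa5, Hsp90b1, Calr, Pdia4, Pdia6 and Creld2, and replicate 3 was the lowest for the first 5 of them. Manf lacked this order, with its highest day 1 array on replicate 3. Within day 1 the highest array was 1.08 times the lowest for Manf and 1.13 times for Creld2, against 1.62 times for Hsp90b1.

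**Figure D3:**
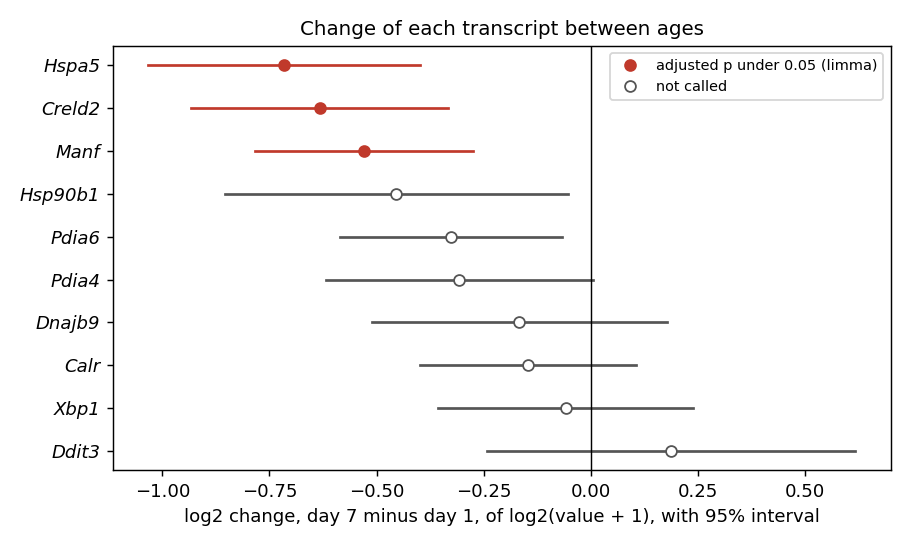
Log2 change of each of the 10 transcripts, day 7 minus day 1 (horizontal axis), with the 95% interval of the fit, filled where the adjusted p was under 0.05. Hspa5, Creld2 and Manf are filled, and only Ddit3 has a positive change.

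The calls were close to the threshold. With quantile normalization the adjusted p was 0.0633 for Hspa5, 0.0728 for Creld2 and 0.0606 for Manf (limma), and the changes were -0.62, -0.52 and -0.45. Without 1 array the call of Hspa5 was kept only without day 1 replicate 3 (limma adjusted p = 0.0425) and those of Creld2 and Manf in none of 6 fits, while the changes stayed between -0.85 and -0.63 for Hspa5, -0.71 and -0.52 for Creld2 and -0.60 and -0.47 for Manf.

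Other tissues were present in the samples and differed between arrays. The tendon markers were bright, except Prelp at 65.5 to 79.2. Tnmd read 6822, 4939 and 4925 on day 7, against 3810.2, 4465 and 2279 on day 1. The summed intensity of 9 tendon markers, Col1a1 and Col1a2 among them, was 47803 to 62286 on day 7 and 26285 to 44305 on day 1. Of the 9, 2 were called higher, Comp and Dcn, against 1.93% of all genes. The sum of 17 skeletal muscle markers was 56473, 71808 and 48616 on day 7, against 88822, 74847 and 92009.7 on day 1. Of the 17, 5 were called lower, namely Myh3, Myh8, Ryr1, Myog and Myod1, against 3.15% of all genes. A single one was called higher, Myh2, against 1.93% of all genes. The 10 genes of the set summed to 5517, 5698 and 5540 on day 7, against 8045, 7361 and 6520 on day 1. Day 1 replicate 3 was the highest array for muscle and the lowest of its age for the chaperone set. Day 7 replicate 2 was the highest of its age for both. Within day 1, Manf had the order of the muscle sum, highest on replicate 3 and lowest on replicate 2. Creld2 was also lowest of day 1 on replicate 2, but highest on replicate 1. On day 1 replicate 1, the array on which 6 of the 10 genes peaked within day 1, 5 epidermal markers summed to 5533, against 135 and 138 on the other day 1 arrays and 144 to 377 on day 7. Without that array the changes were -0.63 for Hspa5, -0.58 for Creld2 and -0.53 for Manf, and that of Hsp90b1 was -0.28. In bulk tissue, fewer cells of a type and less RNA per cell cannot be told apart.

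Markers of the secretory plasma cells and osteoblasts had no gene called, beside a negative control, a bacterial trp transcript, that read at most 4.76. Jchain, a plasma cell gene, read 4.97 to 8.61 on day 7 and 5.66 to 6.37 on day 1, and the bone sialoprotein gene Ibsp, of osteoblasts, read 5.69 to 6.69 on day 7 and 5.80 to 6.59 on day 1. Others of these lists read higher, with Prdm1, a plasma cell regulator that other cells express too, at 20.9 to 31.2 on day 7 and 22.6 to 34.0 on day 1, and Spp1, the osteopontin gene, at 10.7 to 20.2 on day 7 and 18.8 to 26.1 on day 1. All 6 plasma and B cell markers together summed to 54.1 to 64.9 on day 7 and 53.7 to 66.4 on day 1, and the 5 osteoblast markers to 44.8 to 61.4 on day 7 and 53.9 to 63.9 on day 1. The sum of 10 macrophage markers was 1598.9 to 1989.6 on day 7 and 1811 to 2742 on day 1. Their median change was -0.30, and 8 of the 10 changes were negative. At an unadjusted p under 0.05, 4 were lower and 1 higher. The single macrophage marker called, Adgre1, went against most of its list and was 2.27-fold higher on day 7 (limma adjusted p = 0.0190). Of 6 mast cell and neutrophil markers 2 were called lower and none higher, with a median change of -0.77 and sums of 257 to 415 on day 7 and 337 to 603 on day 1. They were S100a9, a neutrophil gene, at 7.48, 16.4 and 12.3 on day 7, against 38.9, 60.8 and 164 on day 1, and the mast cell tryptase gene Tpsb2, which fell 1.71-fold (limma adjusted p = 0.0365 and 0.0338). Of 7 endothelial markers 1 was called higher and none lower, with sums of 2185 to 2682 on day 7 and 1746 to 2347 on day 1. Fat, cartilage and nerve markers also differed. Of these, 9 of 11 adipocyte and 2 of 10 cartilage genes were called higher and none lower, and 1 of 6 Schwann cell and nerve genes was called higher and 1 lower, with sums of 3164 to 6513, 2987 to 5546 and 2256 to 8820.2 on day 7 and of 1601 to 1810.5, 1087 to 2926 and 1886 to 2226 on day 1. The counts of each marker list stand against 3.15% of all genes called lower and 1.93% called higher. The part of these cell types, of muscle or skin in the changes of the set was not tested.

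**Figure D4:**
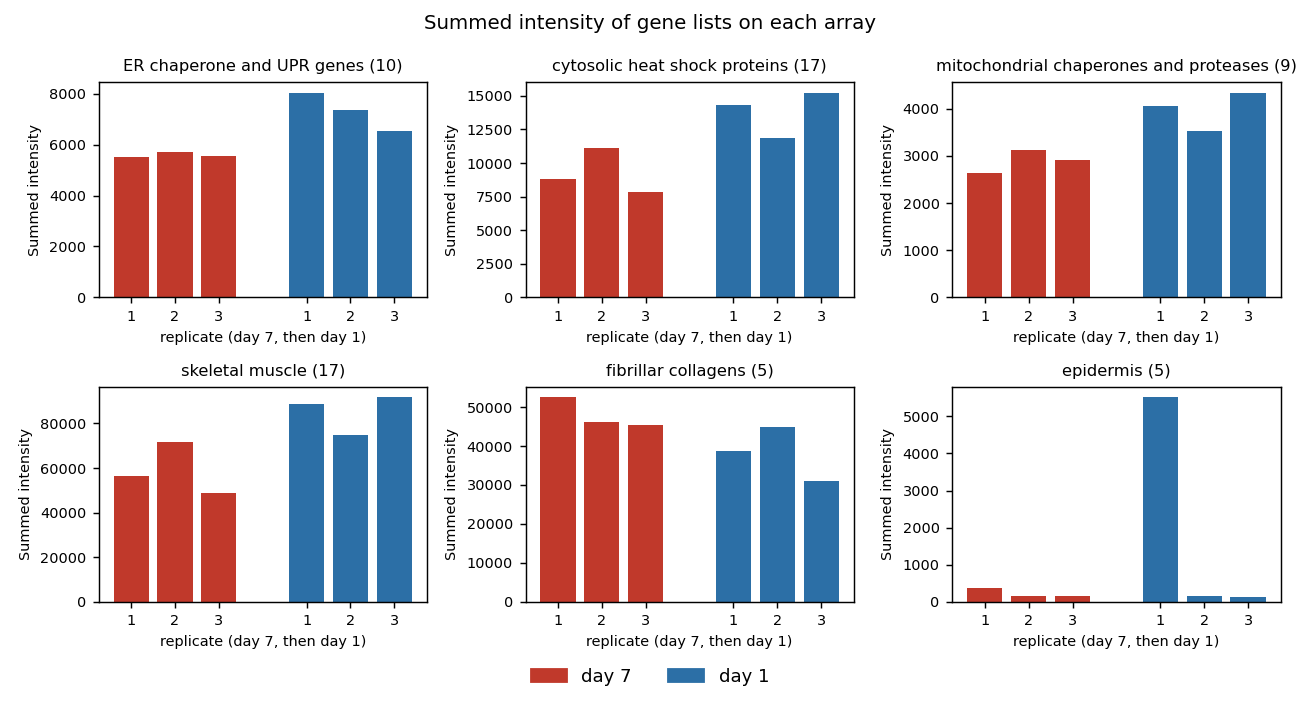
Summed intensity (vertical axis, linear, from 0) of 6 gene lists on each array, with day 7 left and day 1 right and the number of genes in brackets. The chaperone set is lower on every day 7 array, the muscle and cytosolic heat shock lists peak on day 1 replicate 3, and the epidermal list is high on day 1 replicate 1 alone.

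Among 16 other chaperones of the endoplasmic reticulum none passed in either direction, and the median change was -0.11. At an unadjusted p under 0.05, 5 were lower and 1 higher, against 17.0% and 10.6% of all genes. Canx, which encodes calnexin, the membrane-bound partner of calreticulin, averaged 888 ± 23.5 on day 7 and 1194 ± 52.1 on day 1 (SD, n = 3 each). Its change was -0.43 (limma adjusted p = 0.0602), and its other probe sets had changes of -0.26 and -0.24. Dnajc3, which encodes the BiP co-chaperone p58IPK, had a change of -0.53 (limma adjusted p = 0.0832). Among 18 disulfide isomerases and oxidases none passed, with a median of -0.02, while 5 were lower and none higher at an unadjusted p under 0.05. The smallest p was that of Ero1a, the oxidase that recharges the isomerases (change -0.62, limma adjusted p = 0.0571; -0.16 with its other probe set), followed by the membrane-bound isomerase Tmx1 (change -0.37, adjusted p = 0.0878). P4hb, a much-studied family member and the beta subunit of prolyl 4-hydroxylase, had a change of 0.17 (limma adjusted p = 0.484).

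Canx and Dnajc3 also hold the full ER stress element. So does Ero1b of the isomerase list, with a change of 0.02 (limma adjusted p = 0.966), or 0.21 with its other probe set. Outside the set 16 genes had a window with it, of which 12 were measured. None of the 12 passed, and their median change was -0.14. At an unadjusted p under 0.05, 4 were lower and 1 higher, against 17.0% and 10.6% of all genes. Within the set the genes with the element included Hspa5 and Creld2, which fell, and Calr and Xbp1, whose groups overlapped.

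None of 20 genes of ER-associated degradation passed, with a median of -0.17, among them Herpud1, a stress-induced component (change -0.06, limma adjusted p = 0.867). Of the 20, 7 were lower and 2 higher at an unadjusted p under 0.05, against 17.0% and 10.6% of all genes. The smallest p-values of this list were those of Os9, a lectin that delivers misfolded glycoproteins (change 0.39, adjusted p = 0.119), and the ubiquitin-conjugating enzyme Ube2g2 (change -0.44, adjusted p = 0.130). None of 38 genes of the translocon and N-glycosylation passed, with a median of -0.02, while 6 were lower and 4 higher at an unadjusted p under 0.05. The translocon subunit Sec61b had a change of 0.50 (limma adjusted p = 0.0567) and the glucosidase Mogs one of -0.66 (adjusted p = 0.0634). Of 28 genes of vesicle coats and cargo receptors, 8 were higher and 4 lower at an unadjusted p under 0.05. The shares of all genes were 10.6% and 17.0%. None of the 28 passed, and the median was 0.19. Among these Preb, the exchange factor that starts coat assembly at the endoplasmic reticulum, had a change of -0.51 (limma adjusted p = 0.0690) and the coat GTPase Sar1a one of 0.45 (adjusted p = 0.0986; 0.07 with its other probe set).

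The lists of collagen-specific folding machinery and of its cargo had positive medians. Of 12 procollagen chaperones and hydroxylases only P4ha1, a catalytic subunit of prolyl 4-hydroxylase, was called, 1.81-fold higher (limma adjusted p = 0.0336). Over all genes 1.93% were called higher, and the median of the 12 was 0.24. The call of P4ha1 was lost with a pseudocount of 16 (adjusted p = 0.0520) and in 5 of 6 fits without 1 array. Serpinh1, which encodes the collagen chaperone HSP47, had a change of 0.34 (limma adjusted p = 0.164) and the prolyl isomerase Fkbp10 one of 0.46 (adjusted p = 0.155). The median of 5 fibrillar collagens was 0.26, with changes of 0.51 for Col1a1 and 0.43 for Col1a2, which did not pass (limma adjusted p = 0.179 and 0.170). The median of the chaperone set over the same arrays was -0.32. The collagen sum was 45546 to 52687 on day 7 and 31069 to 44966 on day 1. It shares Col1a1 and Col1a2 with the sum of tendon markers, so the sums are not separate observations.

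Of the sensors and transcription factors that start the response, 9 of 10 listed were measured and Ern1, which encodes IRE1, was not analysed here. Creb3l1, which encodes OASIS, an ATF6 relative that drives collagen genes in bone, was the single gene called, against 1.93% higher over all genes. It read 485, 393 and 357 on day 7, against 209.9, 254 and 175 on day 1. Every day 7 array lay above every day 1 array, a 1.93-fold rise (log2 change 0.95, SE 0.17; limma adjusted p = 0.0321). The call was lost with a pseudocount of 16 (adjusted p = 0.0536) and in 5 of 6 fits without 1 array, all but that without day 1 replicate 2, with adjusted p from 0.0567 to 0.122. Atf6 had a change of -0.10, Eif2ak3, which encodes PERK, 0.15 and Atf4 0.24, and none of the 3 passed (limma adjusted p = 0.636, 0.568 and 0.317). Creb3, another member of the OASIS family, had a change of -0.45 (adjusted p = 0.0918).

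Of 28 targets of ATF4 and CHOP, 3 rose and none fell, against 1.93% and 3.15% of all genes, and the median was 0.12. Slc7a11, the cystine transporter, read 71.1, 56.3 and 35.1 on day 7, against 10.02, 13.4 and 7.77 on day 1. It was 4.75-fold higher (limma adjusted p = 0.0141), a log2 change of 2.25 that was 1.38 with a pseudocount of 16 (adjusted p = 0.0398). Nupr1, a stress-induced chromatin protein, was 2.45-fold higher (limma adjusted p = 0.0209), and Psat1, an enzyme of serine synthesis, was 1.65-fold higher (adjusted p = 0.0209). Without day 7 replicate 1, or without day 1 replicate 1, none of these 3 calls was kept. Slc7a11 and Psat1 are genes of amino acid supply, and Ddit3 itself did not pass.

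Among chaperones of other compartments 1 of 17 cytosolic and 2 of 9 mitochondrial genes were called lower, against 3.15% of all genes. Of 17 cytosolic heat shock proteins and their regulators, 16 had a negative change, as did 52.0% of all genes, and the median was -0.43. Of the 17, 11 were lower and 1 higher at an unadjusted p under 0.05, against 17.0% and 10.6% of all genes. Hsp90ab1, a cytosolic Hsp90, fell 1.48-fold (limma adjusted p = 0.0477; change -0.80 with its other probe set), and the co-chaperone Stip1 had a change of -0.70 (adjusted p = 0.0540). Of 9 mitochondrial chaperones and proteases all had a negative change, and the median was -0.44. At an unadjusted p under 0.05, 7 of the 9 were lower and none higher. Trap1, the mitochondrial Hsp90, fell 1.57-fold and Hspd1, the mitochondrial Hsp60, fell 1.45-fold (limma adjusted p = 0.0342 and 0.0469). Each of these 3 calls was lost in at least 5 of 6 fits without 1 array, and that of Hspd1 also with quantile normalization (adjusted p = 0.0661). The cytosolic list summed to 8832, 11141 and 7874 on day 7, against 14289, 11849 and 15244 on day 1, highest on the day 1 array with the most muscle signal. Whether the chaperone set differed from these lists was not tested.

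**Figure D5:**
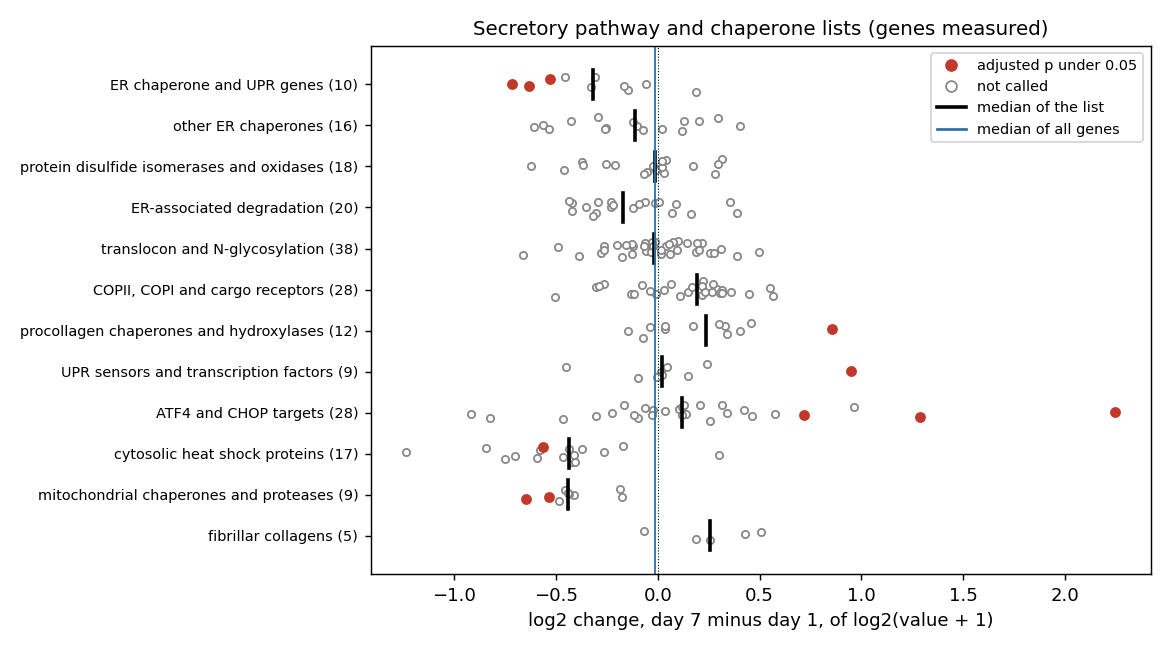
Log2 change, day 7 minus day 1 (horizontal axis), of each measured gene in the chaperone set and 11 other lists, with the number of genes in brackets, black bars for medians and a line for the median of all genes. The medians of the chaperone set, the cytosolic and the mitochondrial chaperones lie between -0.44 and -0.32, and those of the procollagen and fibrillar collagen lists at 0.24 and 0.26.

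The genes outside these lists whose values over the 6 arrays were most like the mean of the 10 genes were Kifc1, a mitotic kinesin, Usp30, a mitochondrial deubiquitinase, Ddx6, an RNA helicase of processing bodies, Zfp715, a zinc finger gene, and Rif1, which controls replication timing. Their Pearson correlations with it were 0.996, 0.993, 0.992, 0.991 and 0.991 over 6 arrays, the highest among 6871 genes brighter than the median gene. With so few arrays, of which the ages set apart 3 and 3, such values describe the shared profile and no more. Kifc1 fell 1.78-fold (limma adjusted p = 0.0380), with 74.5, 80.1 and 73.7 on day 7, against 156, 152 and 106 on day 1, and so had its lowest day 1 value on replicate 3, as Hspa5 did.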

How the data were processed

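Per the submitters' processing notes the authors used MAS5 and RMA, and the deposited values are linear intensities. No source used here says which method made them or how they were scaled, and a difference of scale between arrays can move many genes at once. Array medians lay between 20.5 and 21.1. The ratio of the 3′ to the 5′ beta-actin control was 2.40, 2.17 and 3.35 on day 7, against 2.44, 2.85 and 1.81 on day 1. That of GAPDH was 2.09, 1.73 and 2.00 on day 7, against 1.74, 1.795 and 1.745 on day 1. The part of RNA quality in the changes was not tested. After 57 control probe sets were removed from 31099, the other 31042 were fitted on log2(value + 1) with limma 3.58.1 in R 4.3.3 (lmFit and eBayes, two-sided), at an adjusted p of 0.05. The platform annotation gave 20826 of them 1 gene, 436 several and 9780 none, and the probe set with the highest mean stood for a gene. Of the 20826, 20758 matched the RefSeq table of GRCr8.

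The members, the lists and the tests were chosen with earlier results of these data known. Named were the 10 genes, of each pathway list every called gene and those 2 with the smallest p, 10 sensors, chaperones and cargo genes in any case, and the 5 most alike genes. P4hb and the cell type markers were named after their values were seen. The number of arrays limits the precision. Alternatives were quantile normalization, median centring, brighter probe sets, averaged probe sets, a variance trend, array weights, a pseudocount of 16, a replicate block and each array left out. Leaving out both arrays numbered 2 was added after seeing the data. Protein sequences were not used here.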

Additional observations from a re-analysis of the deposited data

How the results depend on the processing

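The direction of 8 of the 10 genes was the same in all 15 alternatives. The change of Xbp1 was 0.0335 with quantile normalization, 0.0456 without day 1 replicate 2, 0.0048 without day 7 replicate 3 and 0.0247 without both arrays numbered 2, with -0.121 as the lowest value without 1 array, and that of Ddit3 was -0.0254 without day 1 replicate 3 and at most 0.346 without 1 array. Atf6 had 0.0080 with quantile normalization, and Herpud1 0.0472 with it, 0.0310 with array weights, and -0.188 to 0.126 without 1 array, positive without replicate 3 of either age. Of the 10 genes, 3 were called lower with median centring, brighter probe sets, the mean of probe sets, a variance trend, array weights and a pseudocount of 16. The count was 0 with quantile normalization and without both arrays numbered 2, and 0 to 1 without 1 array. The median of the set was -0.39 to -0.25 without 1 array and -0.21 with quantile normalization. Over all genes, 0 to 382 were called lower and 4 to 271 higher without 1 array, 897 and 538 with array weights, and 182 higher with a pseudocount of 16. With brighter probe sets 641 of 9607 genes were called lower and 334 higher. The mean of probe sets gave 606 and 365 of 14217, and a variance trend 555 and 360, where the main fit gave 448 and 274. Fits with 2 arrays at an age have fewer degrees of freedom.

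The labels do not say whether the replicate numbers pair the arrays. Deviations from the age means of same-numbered arrays correlated by 0.13, -0.27 and -0.09, against -0.225 to 0.285 for arrays of different numbers. With 3 arrays at each age these values cannot decide whether same-numbered arrays were paired. With the replicate number as a block, 0 of the 10 genes were called, with adjusted p of 0.102 for Hspa5, 0.134 for Creld2 and 0.138 for Manf (limma), 8 genes in all were lower and 25 higher, and of the pathway lists 0 were lower and 1 higher.

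The pathway lists together had 3 genes called lower and 5 higher of 199, against 3.15% and 1.93% of all genes. The number called lower was 10 with brighter probe sets, 6 with the mean of probe sets, 8 with a variance trend, 15 with array weights (and 8 higher), 7 with a pseudocount of 16, 7 without both arrays numbered 2, and 0 to 5 without 1 array, when 0 to 5 were higher. With quantile normalization the median was -0.0207 for other ER chaperones, 0.125 for sensors, 0.209 for ATF4 and CHOP targets, -0.100 for ER-associated degradation and 0.0814 for the translocon. The degradation list had -0.219 with brighter probe sets, -0.113 with the mean of probe sets and -0.122 with array weights. Without both arrays numbered 2 the median was -0.682 for cytosolic and -0.604 for mitochondrial chaperones. Without 1 array the medians ran from -0.127 to 0.0283 for disulfide isomerases, -0.0478 to 0.101 for sensors, 0.0680 to 0.159 for ATF4 and CHOP targets, -0.198 to -0.0677 for degradation, -0.0360 to 0.0196 for the translocon, 0.0925 to 0.249 for vesicle coats and -0.620 to -0.354 for cytosolic chaperones. The cause of these shifts was not tested.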
